A study of Mus musculus with 7 samples.

Results

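The genes described are the 10 annotated members of the interferon-related Trim cluster on mouse chromosome 7 and its neighbour Gvin1: Trim34a, Trim5, Trim12a, Trim34b, Trim12c, Trim30b, Trim30c, Trim30a and Trim30d, in genomic order, and Gvin1. They were picked by symbol from the 31253 genes of the deposited tables because their counts separate 2 of the 7 mice, Smad4iko 1 and 2, from the other 5, so that separation is described here with no test. All 10 had at least 50 UMIs (unique molecular identifiers, 1 per captured RNA molecule) over the 7 libraries, as did 16853 genes in all. Peripheral lung of 8-week-old mice was dissociated, and its RNA was read cell by cell from the 3' end on the 10x Genomics platform, 1 library per mouse. The 3 Smad4fl/fl mice carried floxed Smad4 alleles and no Cre, and the 4 Smad4iko mice carried the same alleles with Rosa26-creERT2, a tamoxifen-activated Cre expressed from a locus active in most cell types. Both groups, controls included, were given tamoxifen (75 mg/kg) by 5 intraperitoneal injections from postnatal day 21 to 26, and the controls were littermates. Each library is taken as a separate mouse from its label.

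TRIM proteins are RING-type ubiquitin ligases, and many are induced by interferon. The members of this cluster belong to the TRIM5 family, whose primate TRIM5α binds incoming retroviral capsids through a SPRY domain and blocks infection. In rodents the cluster has expanded: Trim5, Trim12a and Trim12c are close relatives of primate TRIM5, while Trim30a to Trim30d form a second, rodent-specific group, of which Trim30a dampens NF-κB signalling in mouse macrophages. Trim34a and Trim34b are mouse copies of TRIM34, which in human cells acts beside TRIM5α on some capsids. Gvin1 encodes a very large interferon-inducible GTPase.

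The cluster from Trim34a to Trim30d spans 263 kb (chromosome 7, 104244457 to 104507849, GENCODE M21 on mm10), and Gvin1 lies 1649 kb further on, at 106156556 to 106215326. All members except Trim34a and Trim34b are transcribed from the minus strand. The 250 bases before the RefSeq start (GRCm38.p6) of 5 members are shown, because within each related set some members separated the mice and others did not. Each is written 5′ to 3′ on its own, minus, strand, and capitals mark matches to the interferon response core GAAANNGAA on either strand.
Trim5, chr7:104288107-104288356: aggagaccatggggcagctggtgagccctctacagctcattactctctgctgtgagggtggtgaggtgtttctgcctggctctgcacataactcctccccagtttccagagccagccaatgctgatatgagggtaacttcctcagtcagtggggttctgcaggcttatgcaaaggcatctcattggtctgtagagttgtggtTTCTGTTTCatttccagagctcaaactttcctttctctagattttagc
Trim12a, chr7:104315496-104315745: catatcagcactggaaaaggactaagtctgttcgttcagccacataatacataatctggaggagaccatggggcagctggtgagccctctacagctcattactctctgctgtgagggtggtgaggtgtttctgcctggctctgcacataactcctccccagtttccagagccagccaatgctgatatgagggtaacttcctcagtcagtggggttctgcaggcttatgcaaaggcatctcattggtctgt
Trim12c, chr7:104353350-104353599: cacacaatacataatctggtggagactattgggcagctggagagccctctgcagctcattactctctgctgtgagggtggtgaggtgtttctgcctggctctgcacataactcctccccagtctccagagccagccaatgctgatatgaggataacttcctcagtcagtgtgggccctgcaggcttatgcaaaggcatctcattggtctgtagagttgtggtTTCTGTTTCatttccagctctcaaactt
Trim30a, chr7:104465194-104465443: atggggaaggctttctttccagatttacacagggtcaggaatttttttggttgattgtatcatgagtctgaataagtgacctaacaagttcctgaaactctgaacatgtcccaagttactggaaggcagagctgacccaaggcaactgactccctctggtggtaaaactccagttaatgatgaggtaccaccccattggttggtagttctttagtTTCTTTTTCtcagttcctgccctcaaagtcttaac
Trim30d, chr7:104507850-104508099: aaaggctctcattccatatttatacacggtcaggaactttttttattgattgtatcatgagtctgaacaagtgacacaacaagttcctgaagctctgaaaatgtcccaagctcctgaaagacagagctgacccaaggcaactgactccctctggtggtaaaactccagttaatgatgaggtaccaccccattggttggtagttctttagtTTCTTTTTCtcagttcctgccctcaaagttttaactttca
The windows of Trim5 and Trim12a were identical over 191 aligned bases, and Trim12c matched Trim5 at 219 of 230 aligned bases (95.2%). Trim30a and Trim30d matched at 226 of 245 aligned bases (92.2%). The core was found in 5 of 10 windows of the members (9 members matched the RefSeq table, Trim30a with a second start), namely those of Trim5, Trim34b, Trim12c, Trim30a and Trim30d, and in 2342 of 32851 windows of the same length genome-wide (7.13%). Another motif searched on both strands, TTCNNNGAA, was in 1 of the 10 (that of Trim30c) and in 7.02% of all windows. The Trim12a window begins further upstream than that of Trim5 relative to the shared bases, so it ends before the stretch that holds the core in Trim5. The windows are of the reference genome, and the sequence in these mice was not analysed here.

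The libraries held 46449235 to 66557262 UMIs each, and 49671 cells passed the filters, 6378 to 8142 per mouse, at medians of 4463 to 6324 UMIs. Smad4 itself had 127 to 129 CPM (UMIs per 1000000 UMIs of the same cells) in T cells of the 3 Smad4fl/fl mice and 56.9 to 84.8 in the 4 Smad4iko mice; where the counted 3' end lies relative to the deleted part is not given in the sources used here. Other features also set libraries apart. Smad4iko 3 and 4 lay beyond all others on the first principal component in 9 of 10 cell classes and had 4207 and 2156 CPM of the globin gene Hbb-bs, against 39.5 to 286 elsewhere. Smad4fl/fl 1 had 46.5% endothelial and mesenchymal cells, against 4.64% to 11.8%. Smad4iko 1 and 2 lay beyond the rest on that component in 0 of 10 classes. Of 55258 distinct barcodes, 411 (0.744%) occurred in more than 1 library.

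Among the TRIM5-like genes, Trim12a and Trim5 were near 0 in 5 mice and clearly present in Smad4iko 1 and 2. Trim12a had 4, 9 and 15 UMIs in Smad4fl/fl 1 to 3, 1646 and 1587 in Smad4iko 1 and 2, and 3 and 2 in Smad4iko 3 and 4. As CPM of the whole library these were 0.0624, 0.202 and 0.277, then 29.9 and 35.5, then 0.0614 and 0.0413. The 2 mice were thus above the other 5 without overlap, and the pooled level was 256-fold higher (95% exact interval 182 to 372, which covers counting error only). Trim5 had 0, 1 and 2 UMIs in Smad4fl/fl 1 to 3, 259 and 271 in Smad4iko 1 and 2, and 1 and 0 in Smad4iko 3 and 4. Its pooled level was 346-fold higher in Smad4iko 1 and 2 (134 to 1273). In contrast with both, Trim12c had 42.1, 44.9 and 51.7 CPM in Smad4fl/fl 1 to 3, 48.5 and 61.6 in Smad4iko 1 and 2, and 48.8 and 54.3 in Smad4iko 3 and 4. The sets overlapped for Trim12c, and its pooled levels were in the ratio 1.13.

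In the Trim30 group Trim30d showed the same contrast between mice. It had 0.483, 0.560 and 0.240 CPM in Smad4fl/fl 1 to 3, 11.1 and 17.2 in Smad4iko 1 and 2, and 0.307 and 0.413 in Smad4iko 3 and 4. That was a pooled ratio of 34.5 (28.3 to 42.5), and its 104 UMIs in the other 5 mice left it low but detected in each of them. Trim30b ran from 1.17 to 8.44 CPM in the other 5 mice and was 11.9 and 36.4 in Smad4iko 1 and 2. Most of its UMIs came from neutrophils, which made up 15.5% and 31.1% of cells in Smad4iko 1 and 2, 3.70% to 14.7% in the Smad4fl/fl mice and 17.9% and 12.4% in Smad4iko 3 and 4. Within neutrophils the 2 mice were also above, at 146 and 188 CPM against 45.1 to 84.6. Trim30a had 41.0, 52.0 and 54.7 CPM in Smad4fl/fl 1 to 3, 66.2 and 100.4 in Smad4iko 1 and 2, and 67.1 and 71.7 in Smad4iko 3 and 4. The sets overlapped, since Smad4iko 1 lay below Smad4iko 3 and 4. Trim30c stayed between 0.530 and 1.48 CPM in all 7 mice, and its sets overlapped as well.

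The TRIM34 copies went opposite ways. Trim34a had 1.65, 1.43 and 1.48 CPM in Smad4fl/fl 1 to 3, 8.65 and 11.0 in Smad4iko 1 and 2, and 1.70 and 1.20 in Smad4iko 3 and 4, a pooled ratio of 6.46 (5.74 to 7.28). Trim34b had 38, 26 and 33 UMIs in Smad4fl/fl 1 to 3, 11 and 8 in Smad4iko 1 and 2, and 24 and 17 in Smad4iko 3 and 4. It was the only member lower in Smad4iko 1 and 2, with a pooled ratio of 0.359 (0.210 to 0.582). Of the 100-base words in the last 500 bases of its transcripts 31.7% also occur in Trim34a, and for Trim34a 12.5% occur in Trim34b. How reads from such shared words were counted was not examined here, so both levels are uncertain to that extent. The sum of both genes still separated the mice, with 8.85 and 11.2 CPM in Smad4iko 1 and 2 against 1.55 to 2.24 in the others.

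Gvin1 had 0.296, 0.717 and 0.776 CPM in Smad4fl/fl 1 to 3, 3.24 and 3.11 in Smad4iko 1 and 2, and 0.553 and 0.579 in Smad4iko 3 and 4. The pooled ratio was 5.59 (4.58 to 6.84). Every 100-base word of its transcript end (100%) is also in Gm4070, a neighbouring gene model of the same kind, which had 7.92 to 9.20 CPM in Smad4iko 1 and 2 and 8.52 to 12.9 in the others. The sum of Gvin1 and Gm4070 overlapped between the sets, at 12.4 and 11.0 CPM in Smad4iko 1 and 2 against 9.07 to 13.6, so the value of Gvin1 is uncertain. No shared word was found for Trim12a, Trim30a, Trim30b or Trim30c, 14.8% were shared for Trim5 (with Trim12c) and 13.9% for Trim30d (with Trim30a).

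**Figure D1:**
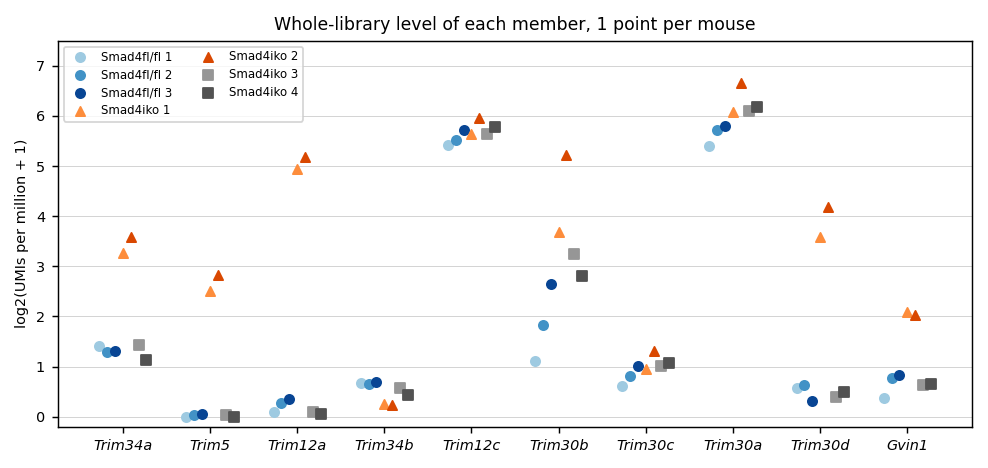
Level of each of the 10 genes in every mouse, as log2(CPM + 1) of the whole library, in genomic order. Triangles mark Smad4iko 1 and 2, squares Smad4iko 3 and 4 and circles the Smad4fl/fl mice; the triangles stand far above the rest for Trim12a, Trim30d, Trim5 and Trim34a, below them for Trim34b, and among them for Trim12c.

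In all, 7 of the 10 members had Smad4iko 1 and 2 outside the range of the other 5 mice, 6 above and 1 below. Of the 16853 genes with at least 50 UMIs, 1223 (7.26%) had such non-overlapping sets, 597 above and 626 below. As the members were chosen for this pattern, the count is given as a description. The gap between the nearest libraries of the sets was at least 1 on the log2(CPM + 1) scale in 6 genes (0.0356%). These were Trim12a (4.60), Trim30d (2.95), Trim5 (2.46), Trim34a (1.84) and Gvin1 (1.21) above, and Lyz1 (1.66 in size) below. Just inside and outside the separation, Trim34b had a gap of 0.17 in size and Trim30b one of 0.45, while Trim30a missed it by the difference between 66.2 CPM in Smad4iko 1 and 71.7 in Smad4iko 4.

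The other genes most like the members by this gap, over the 7 libraries, came from other chromosomes and had smaller gaps. Hmox1, which encodes heme oxygenase 1, had 921 and 769 CPM in Smad4iko 1 and 2 and 89.2 to 413 in the others, a gap of 0.90. Fabp4 (0.88), a fatty acid-binding protein gene, Srxn1 (0.82), an antioxidant gene, Isg15 (0.81), a ubiquitin-like interferon-induced gene, and Rtp4 (0.73), also interferon-induced, followed. Below, Lyz1, a lysozyme gene, had 3.62 and 2.80 CPM in Smad4iko 1 and 2 and 13.6 to 113 in the others. It was followed by Gm42031 (a gap of 0.65 in size), Gm39459 (0.54), Nr4a2 (0.49), Fam49a (0.44), Tsc22d3 (0.42), Ciita (0.42), S100g (0.39), Serpina3g (0.37) and Gm2682 (0.37).

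**Figure D2:**
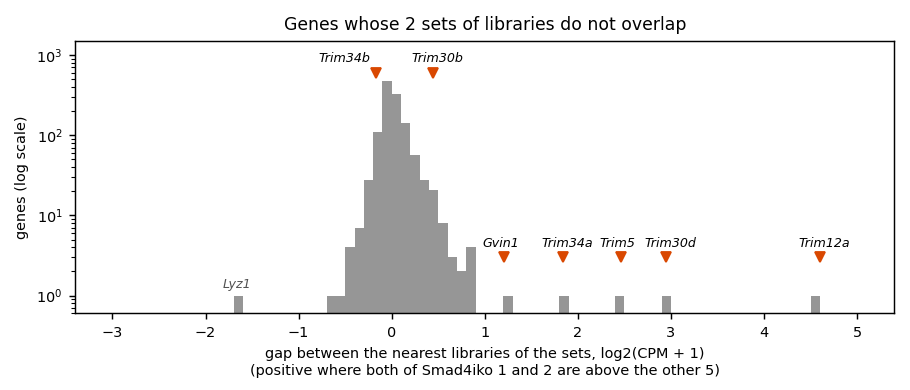
Histogram, with a log count axis, of the gap in log2(CPM + 1) between the nearest libraries of the 2 sets, for the 1223 genes whose sets do not overlap. The 5 genes beyond 1 on the right are all members, and Lyz1 is alone beyond 1 on the left.

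The annotation lists 305 genes of the deposited tables from 3 Mb before Trim34a to 3 Mb past Gvin1, 197 of them olfactory or vomeronasal receptor genes, and 70 had at least 50 UMIs. Of the 60 of these that are not members, 2 were above in Smad4iko 1 and 2 and 3 below, which is 8.33% against 7.26% of all genes, a share near the background. None of the 60 had a gap of 1 or more, and their differences ran from -0.56 to 0.83 on the log2 scale. The highest of these belonged to Gm15133, an antisense gene model that overlaps the start of Trim12a: it had 27 and 50 UMIs in Smad4iko 1 and 2 and 0 in each of the other 5. Against a floor of 3 UMIs over those 5 libraries its level was at least 66.9-fold higher. Trim6, the next Trim gene before Trim34a, had 0.222 to 0.857 CPM in the Smad4fl/fl mice, 1.000 and 0.783 in Smad4iko 1 and 2, and 0.348 and 0.723 in Smad4iko 3 and 4, which overlapped. Between Trim30d and Gvin1 lie 18 measured genes, of which 0 were above and 1, Fam160a2, was below, with differences from -0.39 to 0.23.

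**Figure D3:**
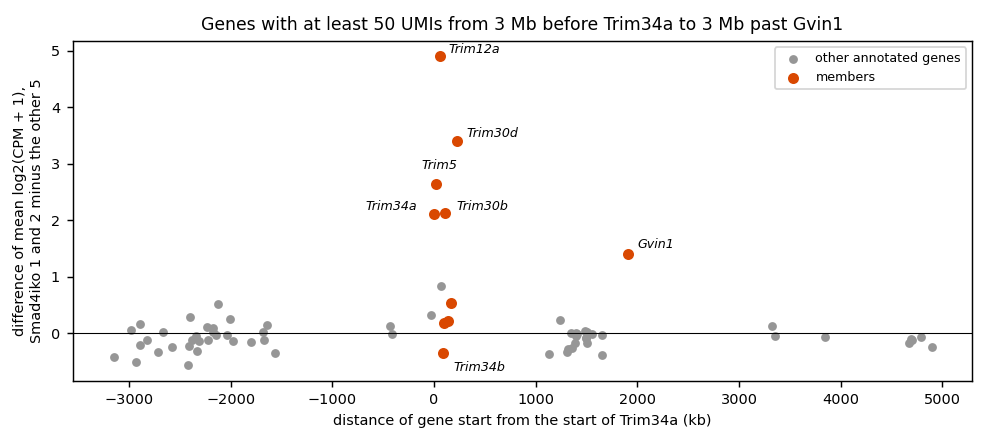
Difference of mean log2(CPM + 1) between Smad4iko 1 and 2 and the other 5 mice, for the 70 measured genes from 3 Mb before Trim34a to 3 Mb past Gvin1, against the distance of the gene's start from that of Trim34a in kb. Members are orange; the non-members lie between -0.56 and 0.83, while Trim12a is at 4.90 and Trim30d at 3.41.

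The contrast between mice was seen in lymphoid, myeloid, endothelial and mesenchymal cells, though its size differed by class and gene. Cells were gated by marker genes, and 115 of 122 of these same markers were highest in their own class, which the gating itself favours. Of the classes 10 had at least 30 cells in every mouse, among them the general (gCap) and aerocyte (aCap) capillary endothelium and type 1 conventional dendritic cells (cDC1). Trim12a had at least 30 UMIs in 7 of them, and in all 7 Smad4iko 1 and 2 were above the other 5. In T cells it had 0, 0.165 and 0.408 CPM in Smad4fl/fl 1 to 3, 45.8 and 46.3 in Smad4iko 1 and 2, and 0.0797 and 0 in Smad4iko 3 and 4. In alveolar macrophages it had 9.38 and 9.87 CPM in Smad4iko 1 and 2 and 0 in each of the other 5, which against a floor of 3 UMIs over the 5 is at least 159-fold higher. The ratio in the other classes ran from 137 in fibroblasts to 293 in T cells. Trim30d was above in 8 of 8 classes, Trim5 in 5 of 5, Gvin1 in 5 of 5, Trim34a in 6 of 7 (aCap endothelium overlapped) and Trim30b in 2 of 3. The pooled ratio of Trim30d ran from 8.88 to 577 over its 8 classes. Trim12c was above in 1 of 10, T cells, where it had 56.1 and 66.0 CPM against 42.1 to 53.1. Trim30a was above in 2 of 10, B cells and fibroblasts, and Trim30c in 0 of 3. Over all members that was 36 of 58 class and gene pairs above and 0 below. The members were chosen for this pattern, so the count is a description and no support for it. Most UMIs of Trim12a, Trim5, Trim30d, Trim34a and Gvin1 came from Smad4iko 1 and 2, which helped them reach 30 UMIs in a class. Over all genes with at least 30 UMIs in a class 4.63% of 109477 pairs were above and 6.54% below. Trim34b, the only member lower in Smad4iko 1 and 2, reached 30 UMIs in no class and so could add no pair below.

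By plain CPM among cells of Smad4iko 1 and 2, Trim12a was highest in B cells, at 53.8 and 79.5 CPM. Then came NK cells (59.8 and 53.1), neutrophils (49.0 and 57.7) and T cells (45.8 and 46.3). B cells, NK cells and neutrophils overlapped in that order, whereas neutrophils lay above T cells in both mice, T cells above gCap endothelium (30.9 and 30.3), and gCap endothelium above the remaining 5 classes, which ran from 5.35 to 17.2. Trim5 was also highest in B cells (15.4 and 17.8 CPM), above NK cells (8.33 and 8.53) and T cells (6.44 and 4.64). Trim30d was highest in neutrophils, at 38.3 and 47.4 CPM, overlapping interstitial macrophages at 16.1 and 39.0, and was lowest in T cells, at 5.51 and 4.64. Trim34a was highest in B cells (16.3 and 33.6 CPM), overlapping aCap endothelium (11.1 and 31.1) and gCap endothelium (14.6 and 16.3). Gvin1 was highest in NK cells (10.6 and 20.9 CPM) and gCap endothelium (9.03 and 13.3), which overlapped. Each of these orders rests on 2 mice and on plain CPM. The TMM scaling described below moved the median of all genes in neutrophils by 1.16 log2 relative to T cells. The place of neutrophils in the order of Trim12a therefore depends on the scaling.

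In the 5 mice where it was low, Trim30d was not equally low in every class. Its 5-mouse pooled level was 0.173% of that of Smad4iko 1 and 2 in neutrophils (95% exact interval 0.00438% to 0.970%). In cDC1 it was 11.3% (4.18% to 26.2%), in interstitial macrophages 5.18% (2.05% to 11.6%), and in classical monocytes, which had under 30 cells in 1 mouse, 13.9% (7.39% to 24.6%). Plasmacytoid dendritic cells, also few, had 17.7, 22.5 and 3.22 CPM in Smad4fl/fl 1 to 3, 67.0 and 49.7 in Smad4iko 1 and 2, and 12.6 and 8.53 in Smad4iko 3 and 4, a share of 22.5% (12.4% to 39.9%). In type 2 conventional dendritic cells, with 27 cells in Smad4fl/fl 3, the level in Smad4iko 1 and 2 was 3.94-fold that of the other 5 mice (95% exact interval 2.03 to 7.69). By its central value that was the smallest contrast of the classes named here. In T cells the 5-mouse level was 0.609% of that of Smad4iko 1 and 2. Trim30d shares part of its transcript end with Trim30a. Trim30a had 170 to 305 CPM in plasmacytoid dendritic cells and 37.7 to 62.8 in T cells. It had 60.5 to 237 in neutrophils, 58.1 to 132 in cDC1 and 55.8 to 117 in interstitial macrophages. The part of Trim30a reads in these values was not tested.

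**Figure D4:**
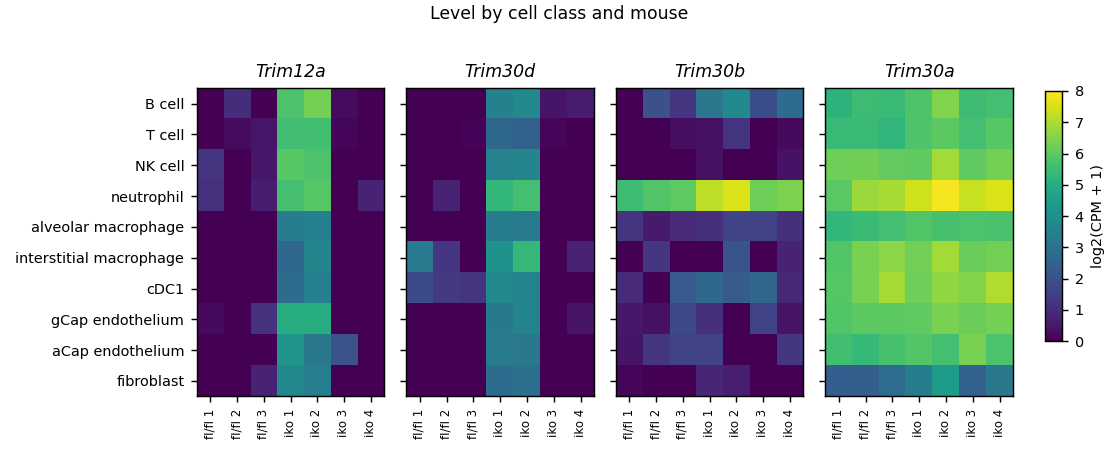
Level of Trim12a, Trim30d, Trim30b and Trim30a as log2(CPM + 1) in the 10 classes (rows) of each mouse (columns). Trim12a and Trim30d stand out in the columns of Smad4iko 1 and 2, more dimly in some rows than in others. Trim30b is bright in the neutrophil row of every mouse, and Trim30a is present in every class.

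In single cells the counts were sparse. At least 1 UMI of Trim12a was found in 19.6% of cells of Smad4iko 1 and 18.8% of Smad4iko 2, and in 0.0300% to 0.217% of cells in the other mice. With each cell thinned to 2000 UMIs, which left out 266 to 1198 cells per mouse, the shares were 7.32% (95% exact interval 6.68% to 8.00%) and 8.46% (7.78% to 9.17%), against 0.0132% to 0.0766% in 4 of the other mice and 0 in Smad4fl/fl 1, which allows a share of up to 0.0446%. No cell of the other 5 mice had more than 1 UMI of Trim12a, and the most in a cell was 6 in Smad4iko 1. Any of Trim34a, Trim5, Trim12a and Trim30d was detected in 31.4% and 32.6% of cells in Smad4iko 1 and 2 and in 1.08% to 1.60% elsewhere; thinned, these were 12.1% and 15.5% against 0.336% to 0.550%. In alveolar macrophages, the thinned share for Trim12a was 1.85% (1.10% to 2.90%) and 1.70% (0.972% to 2.74%), and in T cells 9.33% and 9.46%.

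Compared by genotype, 4 Smad4iko against 3 Smad4fl/fl mice, no member passed the test. After the filter on low counts 30 pairs of a member and a class were testable, from 6 members; Trim12a, Trim5 and Trim30d passed it in no class. By edgeR's quasi-likelihood test with Benjamini-Hochberg adjustment over each class 0 of 30 were called, where 13 of 90897 tests over all genes were (0.0143%), and 11 of 30 had an unadjusted p under 0.05, against 6.43% of all tests. The 4 Smad4iko mice include the 2 on which the members were chosen, so neither count is independent of that choice. DESeq2, which ran on 100 pairs, called 1 (Trim30a in T cells, adjusted p = 0.0320). Some of the 100 had no adjusted p and could not be called, among them Trim34a, Trim5, Trim12a and Trim30d in B cells. Trim30a in T cells had 40.2 ± 2.25 CPM in Smad4fl/fl (SD, n = 3) and 56.1 ± 6.49 in Smad4iko (SD, n = 4). The groups did not overlap, and the log2 difference was 0.55 ± 0.13 (SE) with an adjusted p = 0.290 by edgeR. Trim30a in neutrophils had 98.0 ± 33.3 and 189 ± 33.7 CPM, again without overlap (adjusted p = 0.406 by edgeR; log2 difference 1.09 ± 0.33). Trim30b in neutrophils had 54.7 ± 9.16 and 123 ± 53.4 CPM (adjusted p = 0.432 by edgeR; log2 difference 1.36 ± 0.43).

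Levels were also compared between classes of the same mice, each of 6 classes against T cells, in a fit with the library as a term. This asks in which lung cells each member is most abundant. Trim34a, Trim5, Trim12a, Trim30d and Gvin1 passed the filter on low counts only through Smad4iko 1 and 2, and none of them passed it in a fit of the other 5 mice, so no test is given for these 5. For Trim12c, Trim30a, Trim30b and Trim30c, values are from the fit of all 7 mice, and the fit of the 5, chosen after seeing the data, is given where it changed a call or moved a value by over 1.5 times. Of 24 pairs of these 4 members and a class 11 were called by edgeR at an adjusted p under 0.05 in the 7 mice, and 11 in the 5. In the fit of the 5 mice 54.4% of 79104 pairs over all genes were called, 32.7% to 68.7% by class. In the 7 mice the called share over all 13076 genes was 41.4% for B cells, 40.9% for NK cells and 74.9% for neutrophils. It was 62.9% for non-classical monocytes, 72% for alveolar macrophages and 73.2% for gCap endothelium. In the same order, the members called in the 7 mice numbered 2, 0, 3, 2, 3 and 1 of 4. The TMM scaling of edgeR (trimmed mean of M-values) moved the median of all genes by 1.16 log2 in neutrophils, by -0.48 in gCap endothelium, by -0.28 in NK cells and by -0.25 in alveolar macrophages relative to plain CPM, so values from both are given. It also moved the share of higher genes among those called, from 23.4% to 46.5% in neutrophils, from 72.8% to 53.7% in gCap endothelium, from 69.2% to 43.5% in NK cells and from 59.2% to 49.4% in alveolar macrophages.

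Of these 4 members, Trim30b had the largest difference between classes. It had 94.0 CPM in neutrophils and 0.280 in T cells as means over 7 mice, with 45.1, 55.7 and 63.3 CPM in neutrophils of Smad4fl/fl 1 to 3, 146 and 188 in Smad4iko 1 and 2, and 75.1 and 84.6 in Smad4iko 3 and 4. It was higher in neutrophils than in T cells in 7 of 7 mice (log2 difference 9.61 ± 0.31 (SE), adjusted p = 1.55e-38 by edgeR; 8.42 with plain CPM). It was also higher in non-classical monocytes (5.02 ± 0.40), B cells (4.01 ± 0.39) and alveolar macrophages (2.03 ± 0.40), each called by edgeR under both scalings. In the 5 mice its difference was 10.11 in neutrophils and 3.06 in alveolar macrophages, and that in gCap endothelium (1.23 ± 0.59, adjusted p = 0.0545 by edgeR in the 7 mice) was called (2.29 ± 0.68, adjusted p = 0.00272 by edgeR). Trim30a was higher in neutrophils in 7 of 7 mice (150 against 49.3 CPM, log2 difference 2.73 ± 0.16, adjusted p = 3.26e-25 by edgeR; 1.57 with plain CPM). Its differences from T cells were not called in the other 5 classes with TMM, while plain CPM called it higher in NK cells (0.65) and gCap endothelium (0.50). Trim30c was higher in B cells (1.98 ± 0.40) and lower in alveolar macrophages (-2.78 ± 0.50) and gCap endothelium (-3.61 ± 0.78). Trim30c fell below the filter without Smad4fl/fl 1, Smad4iko 1 or Smad4iko 4.

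Of the TRIM5-like genes, Trim12c was higher in neutrophils (109 against 51.6 CPM, 6 of 7 mice, log2 difference 2.25 ± 0.17; 1.08 with plain CPM) and lower in alveolar macrophages (-0.77 ± 0.17) and non-classical monocytes (-0.53 ± 0.19). The last was not called in the 5 mice (-0.45, adjusted p = 0.0763 by edgeR).

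**Figure D5:**
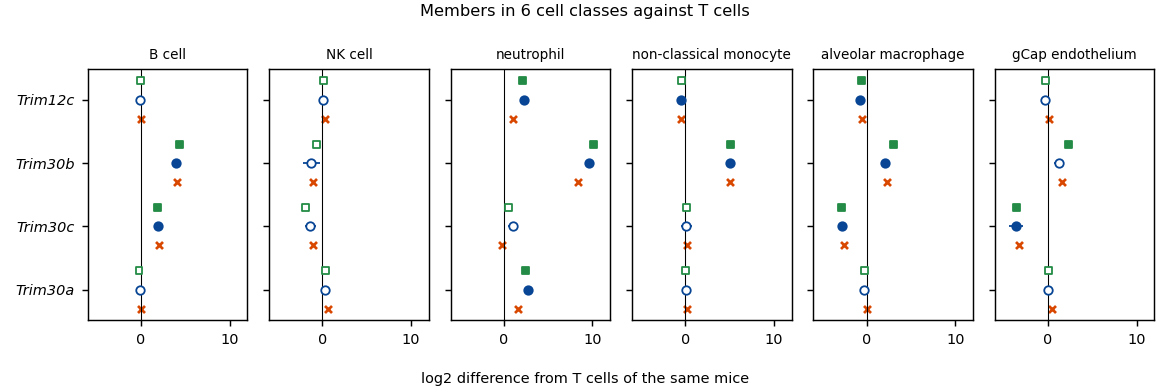
Log2 difference of 4 members from T cells of the same mice in 6 classes. Circles with SE bars are the TMM-scaled edgeR values of all 7 mice and squares those without Smad4iko 1 and 2, both filled where called, and crosses are plain CPM of the 7; Trim30b in neutrophils stands at 9.61 and 10.11, and the crosses lie to the left of the circles throughout the neutrophil panel.

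Other interferon-related lists differed in how they lay between the mice. Of 36 measured interferon-induced antiviral genes 8 were above in Smad4iko 1 and 2 (22.2%, against 3.54% of all genes), 0 were below and 28 overlapped, with a median log2 difference of 0.43 against -0.05 over all genes. Isg15 had 60.2, 59.5 and 79.6 CPM in Smad4fl/fl 1 to 3, 141 and 384 in Smad4iko 1 and 2, and 72.6 and 50.9 in Smad4iko 3 and 4. Rtp4 had 54.0 and 140 CPM in Smad4iko 1 and 2 and 25.8 to 32.3 elsewhere, and Oasl1, an OAS-like antiviral gene, 7.71 and 19.8 against 4.37 to 4.81. Ifi27l2a, Ifit1, Rsad2, Oas2 and Oasl2 were the others, with gaps of 0.15 or less. Of 18 interferon-inducible GTPase genes 0 were above and 3 below (16.7%, against 3.71% of all genes), with a median of -0.11. The 3 were Gbp6, Ifi47 and Tgtp1, with gaps of 0.20 or less in size. Of 18 known partners of TRIM5 and TRIM30 proteins 2 were above (11.1%, against 3.54% of all genes), with a median of 0.07. These were Tbk1, an innate immune kinase with a gap of only 0.0008, and Sqstm1, an autophagy receptor with a gap of 0.30. By genotype edgeR called 0 of 272, 0 of 106 and 0 of 167 class and gene pairs of these lists, with 55 (20.2%), 11 (10.4%) and 10 (5.99%) at an unadjusted p under 0.05, against 6.43% of all tests. Over these lists, the other Trim genes and the flanking genes together DESeq2 called 12.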

How the data were processed

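The authors deposited, for each of 7 libraries, raw UMI counts per gene and barcode, written by Cell Ranger 6.1.1 per the file headers; fastp, UMI-tools (no versions) and the build mm10 come from the submitters' processing notes. Kept cells had 300 or more genes, 600 or more UMIs and no more than 20% mitochondrial UMIs, and doublets marked by Scrublet (scanpy 1.11.5, expected rate 6%) were removed (1284 of 50955). Cells were assigned to a class where at least 3 of its markers were detected, with at least 1 more than for the next class; 5.13% stayed unassigned. CPM (UMIs per 1000000) were computed from summed counts of kept cells. Counts were summed per mouse and class and tested with edgeR 4.0.16 (R 4.3.3; DESeq2 1.42.0 as an alternative) in classes with at least 30 cells. The procedure was tested on simulated data. Named genes were all members, the 10 genes with the largest gap in each direction, and genes from 3 Mb before Trim34a to 3 Mb past Gvin1. The members and gene lists were chosen with earlier results of these data known. Replicates are separate samples by label, so p-values of the genotype tests measure the spread between them. The class contrasts came from a fit of all classes together, so their p-values measure the spread over libraries and classes left after both terms. Intervals and floors (3 UMIs) cover counting error only. Alternatives were another tool, no filter, each replicate left out, a replicate block, a term for Smad4iko 3 and 4, stricter cell filters and gates, doublets kept, other scalings and pseudocounts.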

Additional observations from a re-analysis of the deposited data

Results flagged for a closer look

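Among 68 sets of the 4 Smad4iko values, 4 had a library that stood apart by Dixon's test, where chance gives about 1 in 20. For Trim30a in the whole library Smad4iko 2 was at 100.4 CPM against 66.2 to 71.7 in the others (ratio of gap to range 0.838). In interstitial macrophages the same mouse had 117 CPM of Trim30a against 72.6 to 77.9 (0.881). For Trim30c in B cells Smad4iko 4 was at 6.42 CPM against 3.16 to 3.34 (0.946). For Trim12c in fibroblasts Smad4iko 3, with 33 such cells, was at 14.0 CPM against 28.0 to 29.2 (0.923).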

How the results depend on the processing

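The number of members with Smad4iko 1 and 2 outside the other libraries was 7 in the main setting, where 7.26% of all genes were outside. It was also 7 with all deposited barcodes, TMM scaling, equal weight per class, doublets kept or pseudocounts of 0.1 and 5. It was 7 to 10 with each replicate left out, and 8 without Smad4iko 3 and 4, an alternative chosen after seeing the data. Fewer libraries make non-overlap easier to reach, most of all without Smad4iko 1 or 2, where 1 library is set against 5. The share of all genes is not given for these settings, so the higher counts are not read as a result. Genotype calls over all genes went from 13 to 296 with DESeq2, 439 without the filter, 24 with a term for Smad4iko 3 and 4, 22 with the stricter gate, and 4 to 21 with a replicate left out. Among members they went from 0 to 1, 10 and 2 under the first 3 of these. Of the 10, 8 were of Trim12a, Trim5 and Trim30d, which the filter had kept out of the test, and the term compares Smad4iko 1 and 2 with the controls, the values the members were chosen by. Among the gene lists 0 became 12, 19 and 1, and 0 to 5 with a replicate left out (5 without Smad4iko 2). The labels do not say whether replicate numbers pair the mice, and the main fit took the mice as unpaired. Same-numbered deviations correlated at -0.23 to 0.46, over 0.1 in 20 of 30 pairs. For replicates 1 and 3 they ran from 0.11 to 0.46, and for replicate 2 from -0.23 to 0.09. Of 60 sets of a library and class, 40 correlated best with their own number, each among 3 numbers. These values do not settle whether the numbers mark pairs. With a replicate block 58 genes, 0 members and 8 list genes were called. Class contrast calls over 9 members numbered 27 of 54 pairs, where 40.9% to 74.9% of all genes were called by contrast. Of the 27, 16 were of the 5 members that entered the test only through Smad4iko 1 and 2. Those 16 are no result about the members, and the counts below only show how calls moved with the processing. Without the library term 13 were called, all among the 27. With a replicate left out 17 to 28 were called, 17 to 26 of them among the 27 in the same direction; without Smad4iko 1 there were 17 and without Smad4iko 2 18, and in each case 7 of the 27 had no test, as the filter dropped Gvin1 and Trim30c or Gvin1 and Trim5. Chosen after seeing the data, the fit without Smad4iko 1 and 2 called 11, 10 of them among the 27, and plain CPM called 24, 21 of them among the 27, with Trim5 in neutrophils reversed to -0.55. The causes of the other shifts were not tested. Depth limits members with few UMIs: Trim34b could not be described by class.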

Other observations

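Of 40 measured Trim genes outside the cluster, 2 were above in Smad4iko 1 and 2 (5%) and 3 below (7.5%), against 3.54% and 3.71% of all genes, with a median log2 difference of -0.06. Trim25, a ubiquitin ligase of the RIG-I pathway, had 170 and 152 CPM in Smad4iko 1 and 2, 87.2 to 134 in the Smad4fl/fl mice and 80.5 and 74.4 in Smad4iko 3 and 4. Trim9 was the other one above, at 0.164 and 0.358 CPM against 0.0554 to 0.156. Trim14, Trim33 and Trim41 were below, with gaps of 0.08 or less in size. By genotype edgeR called 0 of 219 class and gene pairs of these genes, with 16 (7.31%) at an unadjusted p under 0.05, against 6.43% of all tests. For the genes flanking the cluster and Gvin1 it called 0 of 310, with 32 (10.3%) under 0.05. These 32 include the globin genes Hbb-bs and Hbb-bt, both highest in Smad4iko 3 and 4. Each was under 0.05 in T, B and NK cells, neutrophils, alveolar macrophages, cDC1, fibroblasts and gCap endothelium. The share without the globin genes was not computed.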
